A study of Sus scrofa with 30 samples.

Results

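The endometrium of the pregnant pig was compared between day 16 (PD16) and day 12 (PD12) of pregnancy, with all libraries that carry these labels, 5 for each day, out of 30 in the series. PD12 and PD16 were inseminated Hampshire x Duroc gilts (crossbred young females) of 1 herd, aged 7 to 8 months, and each library held small RNA of the endometrium of 1 animal. This tissue is a mixture of luminal and glandular epithelium, stroma, vessels and blood cells, and in it fewer cells of a type and less RNA per cell cannot be told apart. Conceptuses were washed out of the uterus on both days. The 6 libraries of pregnancy day 20 (PD20) entered the model for its estimate of the spread. PD20 were inseminated gilts of the same cross, herd and age. Their endometrium was sampled at implantation sites, once embryos and trophoblast had been taken off. The libraries of days 12 and 16 of the estrous cycle (CD12, 4, and CD16, 5) were set beside the pregnancy values. These too were of gilts of the same cross, herd and age. So were the 5 libraries of cycle day 20 (CD20), which entered the fits of the cycle values and the scaling of normalized reads.

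A microRNA (miRNA) is a short RNA that guides Argonaute proteins to messenger RNAs, mainly through the seed, bases 2 to 8 from its 5' end. A miRNA is often present in several forms of different length, called isomiRs, which are named here by the bases missing (DEL) or added (ADD) at an end of the canonical sequence, and a change at the 5' end moves the seed. Around day 12 the pig conceptus elongates and signals its presence to the mother, and by day 16 it is attaching to the luminal epithelium.

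The sequences on which the comparison turns are printed as DNA letters, 5' to 3', with the seed in capitals. The first set holds the miR-23 family, whose 2 miRNAs share the seed and differ near the 3' end, with 1 shortened form of each.
miR-23b: aTCACATTgccagggattacca
miR-23b 3' DEL CA: aTCACATTgccagggattac
miR-23a: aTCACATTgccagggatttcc
miR-23a 3' DEL C: aTCACATTgccagggatttc
The second set holds 3 forms of miR-203-3p, in which 1 base added to or missing from the 5' end moves the seed by 1 base.
miR-203-3p: gTGAAATGtttaggaccactag
miR-203-3p 5' ADD T: tGTGAAATgtttaggaccactag
miR-203-3p 5' DEL G: tGAAATGTttaggaccactag
The third set holds the other sequences that are described at length, each with a seed of its own except for the forms of miR-182.
miR-342 3' DEL A: tCTCACACagaaatcgcacccgtc
miR-378: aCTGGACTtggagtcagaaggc
miR-146b: tGAGAACTgaattccataggc
miR-185: tGGAGAGAaaggcagttcctga
let-7i 3' ADD GTT: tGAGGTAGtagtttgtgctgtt
miR-182: tTTGGCAAtggtagaactcacact
miR-182 3' ADD GG: tTTGGCAAtggtagaactcacactgg
miR-532-5p 3' DEL CGT: cATGCCTTgagtgtaggac
miR-155: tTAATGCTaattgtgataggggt

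The 10 libraries held 30587687 reads, from 3109669 to 4065849 a library on PD12 and from 2029729 to 3424813 on PD16. Reads of the 873 annotated sequences made up 78.7% ± 1.32 (SD, n = 5) of all reads on PD12 and 79.2% ± 2.93 (n = 5) on PD16. Of these sequences 872 had a read in at least 1 of the 10 libraries and 832 in all 10, and they were summed to 229 miRNA arms and 169 seed families. The 12 sequences that match several miRNAs were left out of the sums by arm but not of those by family. Levels are given as normalized reads, that is CPM over the annotated reads after TMM scaling, on which 1 read was worth between 0.313 and 0.590 in these libraries. Means are followed by the SD over 5 libraries, and where a pair of means is given without days PD12 comes first. Log2 fold changes (log2FC) are PD16 over PD12 from the fitted model, with their standard error (SE). For PD16 over PD12 the SE rests on the spread of all 16 pregnancy libraries, not of PD12 and PD16 alone.

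No sequence, miRNA or seed family passed the threshold of an adjusted p under 0.05 with a log2FC over 1 in size (edgeR quasi-likelihood F-test, Benjamini-Hochberg adjustment). The smallest adjusted p was 0.0952 for the sequences, 0.355 for the miRNAs and 0.267 for the families. Before adjustment, 89 of 873 sequences (10.2%) had a p under 0.05, 42 higher (4.81%) and 47 lower (5.38%) on PD16. The same count was 23 of 229 miRNAs (10%), 12 higher (5.24%) and 11 lower (4.8%), and 18 of 169 families (10.7%), 9 higher (5.33%) and 9 lower (5.33%). Over all features regardless of p, 53.3% of the sequences, 52.4% of the miRNAs and 49.7% of the families had a log2FC above 0. As alternatives, the likelihood ratio test called 3 sequences and DESeq2 called 9, which are named where they are described. The SE of a log2FC had a median of 0.45 over sequences. Most of the miRNAs described here were chosen for a small p or for groups that did not overlap, so their values describe differences that did not pass the threshold.

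**Figure D1:**
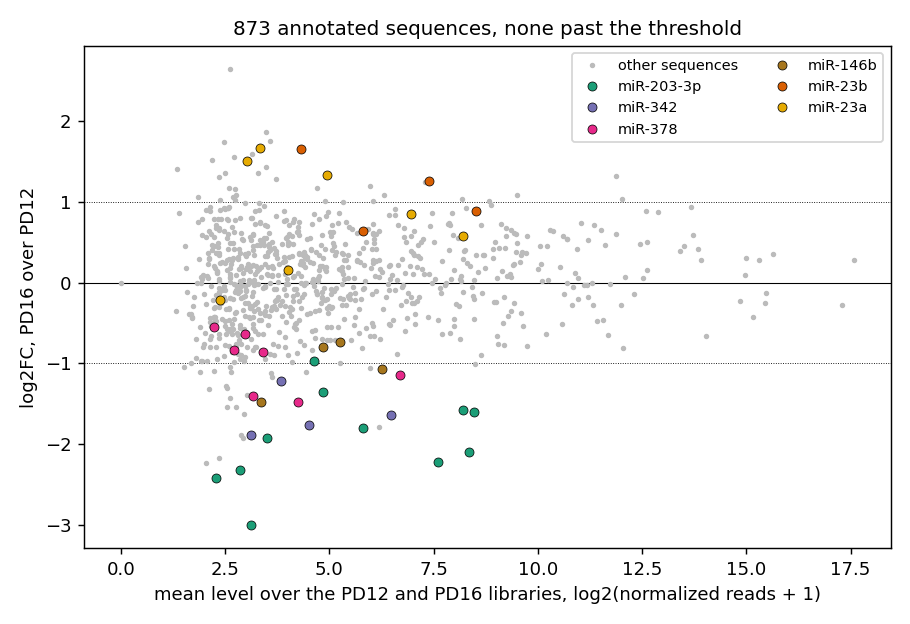
The log2FC of PD16 over PD12 (vertical) is plotted against the mean level of each of the 873 sequences, as log2 of normalized reads plus 1 (horizontal), with dotted lines at a log2FC of 1 and -1. All 11 forms of miR-203-3p, 4 of miR-342, 7 of miR-378 and 4 of miR-146b lie below 0, and all 4 forms of miR-23b lie above it.

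The libraries of the 2 days were not set apart by their whole profile. The mean distance, 1 minus the Pearson correlation of log2(normalized reads + 1) over the sequences, was 0.0648 between PD12 and PD16 libraries and 0.0592 within the groups. The difference of 0.00559 had a two-sided exact permutation p of 0.206, where the smallest p the 10 libraries allow is 0.00794. It was 0.0119 without PD16 replicate 1 (exact permutation p = 0.0476), 0.0113 without PD12 replicate 3 (exact permutation p = 0.0556), 0.00271 without PD16 replicate 2 (exact permutation p = 0.706), 0.00314 without PD16 replicate 4 (exact permutation p = 0.603) and 0.00173 without PD12 replicate 5 (exact permutation p = 0.817). The first principal component, with 45.2% of the variance, spread the libraries of both days over most of its range.

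**Figure D2:**
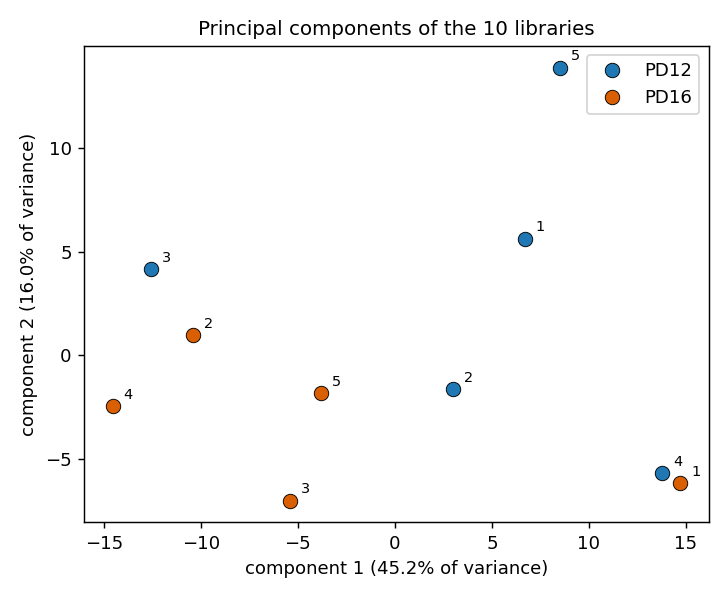
Each point is 1 library, numbered by replicate, on the first (horizontal, 45.2% of the variance) and second (vertical, 16.0%) principal component of log2(normalized reads + 1). PD12 replicate 4 and PD16 replicate 1 lie together at the right, and PD12 replicate 3 lies with PD16 replicates 2 and 4 at the left.

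Of the 5 most abundant miRNAs, miR-21, miR-10b and miR-10a-5p had a wide spread among animals. miR-21, induced in many tissues by inflammation and growth signals, held 40.2% of the annotated reads. It had 296269, 286777, 739341, 207860.0 and 468790.0 normalized reads on PD12 and 188516, 638953, 291066, 485466 and 374643 on PD16. The groups overlapped almost throughout (log2FC -0.01, SE 0.37), and the highest library was PD12 replicate 3. miR-143-3p, typical of stromal and smooth muscle cells, had 103666 ± 21724 and 76914 ± 12615 (log2FC -0.42, SE 0.47). This SE takes in PD20, where the stromal and smooth muscle list that it leads had a sum of 195245 ± 218887 (n = 6). let-7f had 62928 ± 8215 and 78238 ± 18555 (log2FC 0.32, SE 0.26), and its log2FC was 0.20 without PD16 replicate 2. miR-10b and miR-10a-5p, encoded in the HOX gene clusters, had 66849 ± 29162 and 49961 ± 27198 on PD12 and 58571 ± 53731 and 45465 ± 55801 on PD16. In both, PD16 replicate 1 stood far above the other libraries of its group, with 153948 and 144733, and without it the log2FC was -0.98 for miR-10b and -1.31 for miR-10a-5p.

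miR-203-3p, known for restraining proliferation as epithelial cells differentiate, had a lower mean on PD16. Its 11 forms together had 524, 635, 555, 2877 and 5647 normalized reads on PD12 and 502, 400.3, 469.7, 829.9 and 581 on PD16. PD12 replicates 4 and 5 were far above all other libraries, whereas the 3 other PD12 libraries lay within the range of PD16. The log2FC was -1.84 (SE 0.57, unadjusted p = 0.00462, adjusted p = 0.355), and -1.05 without PD12 replicate 5. All 11 forms had a log2FC below 0, from -3.01 to -0.97, but they share 1 source and are not independent.

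The canonical miR-203-3p had 139, 136, 87.3, 902 and 1393 normalized reads on PD12 and 142, 96.7, 95.5, 118 and 131 on PD16 (log2FC -2.11, SE 0.62), again with the high values in PD12 replicates 4 and 5. The form that lacks the first base had 81.3, 81.8, 57.7, 535 and 848 on PD12 and 84.6, 56.6, 60.9, 45.1 and 77.1 on PD16 (log2FC -2.22, SE 0.64), so both seeds were present at levels of the same order. The rarer form with an added T had 3.44, 3.78, 3.23, 20.7 and 38.8 on PD12 and 3.03, 0.590, 1.03, 0.745 and 2.38 on PD16. Its groups did not overlap, by a narrow margin in PD12 replicates 1, 2 and 3 (log2FC -3.01, SE 0.88). Without PD12 replicate 5 the log2FC was -2.24 for this form and -1.43 for the canonical form, and that of the form lacking the first base ran from -2.55 to -1.53 with single libraries left out. DESeq2 called all 3 forms, with an adjusted p of 0.0344 for the canonical form and 0.0333 for the other 2.

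miR-342, processed from an intron of EVL and common in lymphocytes, had 339, 166, 86.8, 57.6 and 359 normalized reads on PD12 and 92.2, 46.6, 28.9, 49.5 and 85.2 on PD16. PD12 replicates 1, 2 and 5 stood above all PD16 libraries, and the other 2 lay within their range. It had the smallest p of the 229 miRNAs (log2FC -1.71, SE 0.48, adjusted p = 0.355), and DESeq2 called it (adjusted p = 0.0274). Its 4 forms had a log2FC between -1.89 and -1.22. The form without the last A held most of the reads, with 136 ± 94.3 and 40.4 ± 18.5, and was called by DESeq2 as well (adjusted p = 0.0344). So was the form without CA, with a median of 25.4 on PD12 and 10.2 on PD16 (log2FC -1.76, SE 0.50, DESeq2 adjusted p = 0.0344).

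miR-378, embedded in PPARGC1B and linked to energy metabolism, had 408, 138, 92.8, 143.8 and 288 normalized reads on PD12 and 56.9, 90.2, 116, 140.4 and 65.7 on PD16. PD12 replicates 1 and 5 were the highest, and replicate 4 was just above the highest PD16 library. The fitted difference (log2FC -1.22, SE 0.39, adjusted p = 0.355) was -0.82 without PD12 replicate 1. All 7 forms had a log2FC below 0. PD12 replicate 5 was the highest or next to highest PD12 library for miR-203-3p, miR-342, miR-378 and miR-146b, and without it 51 sequences in place of 89 had an unadjusted p under 0.05.

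Among miRNAs of immune signalling, miR-146b had a lower and miR-155 a higher mean on PD16. miR-146a-5p shares the seed of miR-146b, and its means lay within 1 SD of each other. miR-146b, a brake on NF-kappaB signalling, had 233, 167, 139, 209 and 263 normalized reads on PD12 and 146, 86.7, 61.4, 82.3 and 114 on PD16. The groups overlapped in 1 PD16 library, which lay above the lowest PD12 library (log2FC -1.002, SE 0.36, adjusted p = 0.355). Its canonical form was rare, with 9.38, 16.1, 15.7, 18.6 and 9.62 on PD12 and 7.21, 1.77, 4.65, 7.45 and 2.38 on PD16, and did not overlap (log2FC -1.48, SE 0.52, adjusted p = 0.347). miR-146a-5p had 135 ± 65.7 and 150.3 ± 46.8 (log2FC 0.17, SE 0.38, adjusted p = 0.877), and the family of both log2FC -0.39, SE 0.33. miR-155, made in activated leukocytes, had 5.63, 3.44, 5.54, 4.07 and 6.73 on PD12 and 9.86, 7.08, 6.71, 14.5 and 10.9 on PD16, or few reads a library, and 4 PD16 libraries were above all PD12 libraries (log2FC 0.95, SE 0.36, adjusted p = 0.389). The printed form had no read in PD12 replicate 3.

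The leukocyte list (miR-142, miR-150, miR-155, miR-223 and miR-342) was found with 5 arms, of which 4 had a log2FC above 0, beside 52.4% of all 229 miRNAs. At an unadjusted p under 0.05, 2 arms were higher (miR-155 and the other arm of miR-142), beside 5.24% of all miRNAs, and 1 was lower (miR-342), beside 4.8%. The list was chosen with earlier results of these data known. Its summed level was nonetheless 257 ± 146 and 143.7 ± 56.9, because miR-342 was its most abundant member. miR-223, a defining marker of granulocytes, was not among the annotated sequences. The part of leukocyte number in these values was not tested. The inflammation list, 4 arms led by miR-21, had 2 arms above 0 and a sum of 400149 ± 212314 and 395987 ± 174306.

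miR-23b and miR-23a belong to 2 clusters with miR-27 and miR-24. miR-23b had 320.3, 403, 653, 346 and 348 normalized reads on PD12 and 411, 927, 1335, 864 and 472 on PD16, with PD12 replicate 3 inside the range of PD16 (log2FC 0.95, SE 0.32, adjusted p = 0.355). Without PD16 replicate 3, the highest library, the log2FC was 0.62. The form without the last 2 bases had 9.38, 13.1, 7.85, 10.2 and 6.09 on PD12 and 14.4, 40.1, 47.5, 27.6 and 13.8 on PD16. Every PD16 library was above every PD12 library for this form (log2FC 1.65, SE 0.37, adjusted p = 0.0952). The likelihood ratio test (adjusted p = 0.00840) and DESeq2 (0.00907) called it. The canonical miR-23b had 99.4 ± 46.9 and 234 ± 95.6 (log2FC 1.26, SE 0.38, adjusted p = 0.272).

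miR-23a had 398, 312, 600.0, 311 and 236 normalized reads on PD12 and 428.9, 797, 554, 554 and 564 on PD16 (log2FC 0.64, SE 0.29). Again PD12 replicate 3 was the library that lay among those of PD16. The form without the last C had 17.2 ± 13.8 and 42.1 ± 18.1 (log2FC 1.34, SE 0.45, adjusted p = 0.336), and its log2FC was 1.99 without PD12 replicate 3. The family of both miRNAs had 789.9 ± 272 and 1395 ± 451 normalized reads (log2FC 0.87, SE 0.28, adjusted p = 0.267). Of the other members of the clusters, miR-27b-3p had 7277 ± 1894 and 7653 ± 3466 (log2FC 0.10, SE 0.32) and miR-24-3p 578 ± 137 and 589 ± 266 (log2FC 0.08, SE 0.36). The rare other arm of miR-24 had 8.18 ± 2.70 and 13.6 ± 7.66 (log2FC 0.71, SE 0.38, adjusted p = 0.471). All 7 arms of the clusters had a log2FC above 0, with a median of 0.10 beside 0.04 over all 229 miRNAs, of which 52.4% were above 0.

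**Figure D3:**
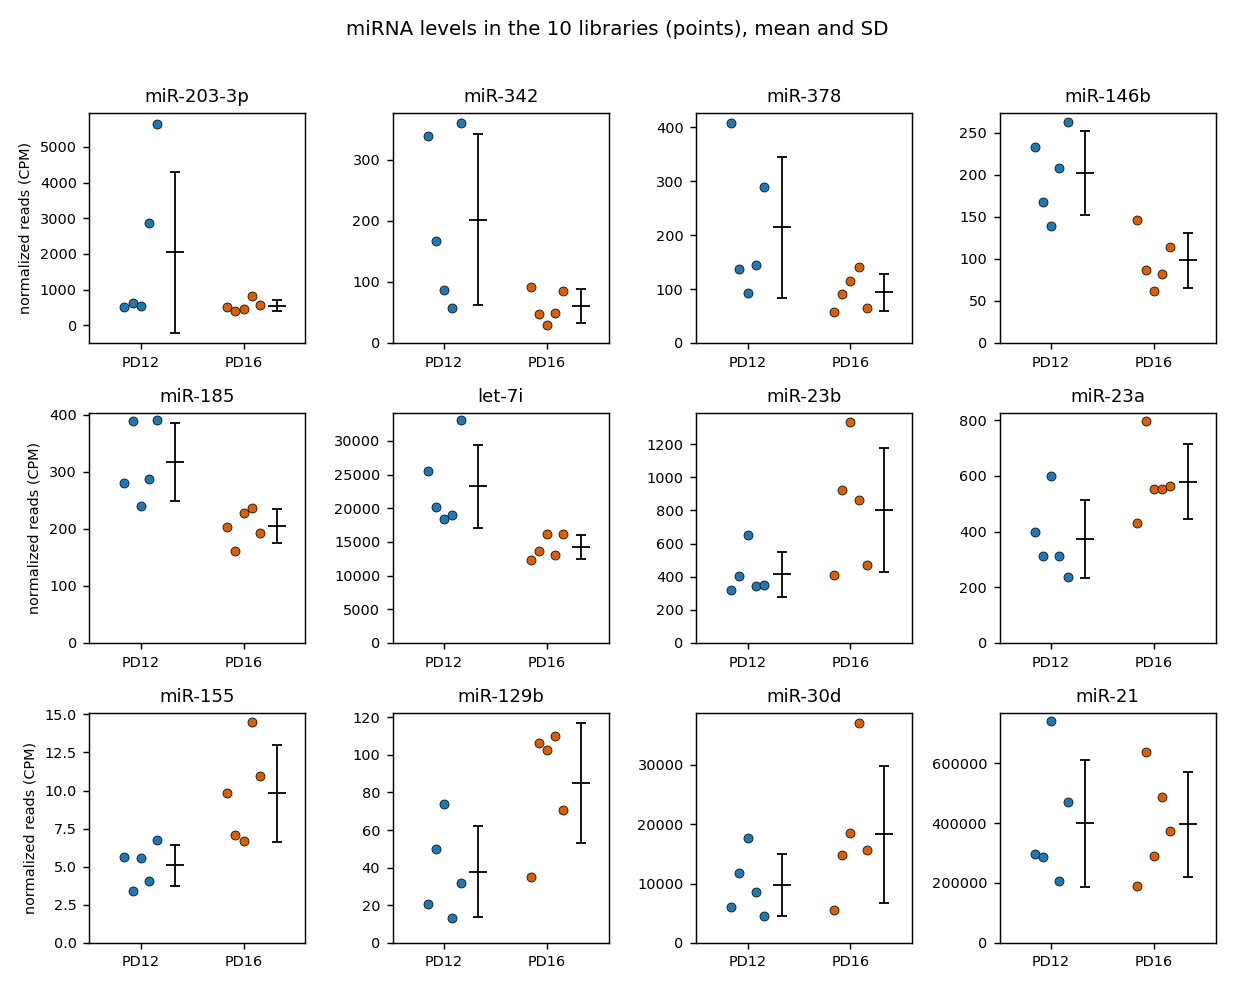
Normalized reads (vertical, from 0, or lower where an error bar needs it) of 12 miRNAs in each PD12 and PD16 library, with the mean and SD beside the points. For miR-185 and let-7i every PD16 library is below every PD12 library, and for the others the groups overlap.

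The 2 miRNAs of 229 without overlap between the groups (0.873%) were miR-185 and let-7i, both lower on PD16. A random split of the 10 libraries leaves no overlap with a probability of 0.00794, which is near this share. miR-185, which lies within TANGO2 and restrains cell cycle genes, had 281, 388, 239, 288 and 391 normalized reads on PD12 and 202.5, 162, 228, 236 and 193 on PD16. The lowest PD12 library was just above the highest PD16 library (log2FC -0.63, SE 0.23, adjusted p = 0.355). Its seed family was the 1 family of 169 (0.592%) without overlap. let-7i, a member of the let-7 family of miRNAs that accompany differentiation, had 25520.2, 20121, 18448, 19062 and 33088 on PD12 and 12332, 13584, 16183, 13002 and 16243 on PD16 (log2FC -0.69, SE 0.29, adjusted p = 0.454). The printed form with GTT added held most of these reads, with 20981 ± 5666 and 12672 ± 1741. The record taken as canonical is 3 bases shorter and had 7.41 ± 3.15 and 6.65 ± 1.26.

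The let-7 members did not all share this direction. Of 14 let-7 arms 9 had a log2FC above 0 and 5 below, beside 52.4% and 47.2% of all 229 miRNAs, and the summed level was 134828 ± 10990.4 and 153701 ± 27761. The 3 arms at an unadjusted p under 0.05 were let-7i, its other arm and the other arm of let-7g, all lower on PD16, beside 4.8% of all miRNAs. The other arm of let-7g had few reads, 1.56, 1.03, 12.0, 3.05 and 16.4 on PD12 and 1.90, 2.36, 1.03, 0.745 and 0.952 on PD16, with the high values in PD12 replicates 3 and 5 (log2FC -2.18, SE 0.73, adjusted p = 0.355). Without PD12 replicate 5 its log2FC was -1.56. Within the miR-30 family 8 of 9 arms had a log2FC above 0, with a median of 0.31 beside 0.04 over all miRNAs, and a summed level of 36330.0 ± 5812 and 48763 ± 13297, for which 4 PD16 libraries were above all PD12 libraries. miR-30d had 9733 ± 5214 and 18308 ± 11552 (log2FC 0.85, SE 0.40, adjusted p = 0.471), miR-30e-5p 1025 ± 336 and 673 ± 102 (log2FC -0.58, SE 0.27, adjusted p = 0.454). The canonical miR-30b-5p had 389, 407, 455, 432 and 428.7 on PD12 and 459, 538, 614, 542 and 570.5 on PD16, without overlap but with a small difference (log2FC 0.41, SE 0.24, adjusted p = 0.551).

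miR-182 is expressed in sensory cells and epithelia, and a long form of it had lower values on PD16 while the canonical form did not. The form with GG added had 51.3, 102, 103, 82.4 and 222 normalized reads on PD12 and 17.1, 25.4, 26.8, 40.2 and 47.1 on PD16. Every PD16 library was below every PD12 library (log2FC -1.79, SE 0.39, adjusted p = 0.0952). The likelihood ratio test (adjusted p = 0.00840) and DESeq2 (0.00508) called it. The canonical miR-182 had 2645 ± 1077 and 3576 ± 1334 (log2FC 0.47, SE 0.41). Forms with bases added at the 3' end made up 9.17% ± 2.96 of the miR-182 reads on PD12 and 4.43% ± 1.07 on PD16, with no overlap. Of 87 miRNAs examined for this share, 2 had all PD16 libraries below all PD12 libraries and 0 had them all above.

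miR-532-5p, of an X-linked miRNA cluster, also had a rare form that differed more than the miRNA. The form without the last 3 bases had 2.50, 1.03, 2.31, 0 and 1.28 normalized reads on PD12 and 4.93, 21.2, 6.19, 4.47 and 7.14 on PD16. The groups did not overlap, and PD16 replicate 2 was far above the others (log2FC 2.65, SE 0.63, adjusted p = 0.129). Without that library the log2FC was 2.02. The likelihood ratio test (adjusted p = 0.00840) and DESeq2 (0.00711) called the form. All forms together had 1129.7 ± 494 and 1526 ± 544 (log2FC 0.40, SE 0.34), and 3 of 6 arms of the cluster had a log2FC above 0, beside 52.4% of all miRNAs.

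Of the 873 sequences 16 (1.83%) had no overlap between the groups, 5 higher on PD16 (0.573%) and 11 lower (1.26%). Besides those named, the higher ones were a sequence of miR-136, of the imprinted DLK1-DIO3 region, with 25.1 ± 2.72 and 37.3 ± 8.19 (log2FC 0.62, SE 0.30, adjusted p = 0.486), and a sequence listed under the Ensembl gene ENSSSCG00000022650. The latter, tTCAAGTAattcaggataggtt, had 178, 167, 222, 272 and 125 on PD12 and 338, 381, 340.2, 282 and 580.5 on PD16 (log2FC 1.03, SE 0.32, adjusted p = 0.277). This sequence has the seed of miR-26a, which had 83419 reads in the 10 libraries beside 8822 for the 3 sequences under that gene. Among the lower ones, miR-542-3p with a T added at its 5' end had 10.3 ± 5.44 and 2.54 ± 1.32 and was called by DESeq2 (adjusted p = 0.0398). miR-204 without its last T had 14.5 ± 5.10 and 7.52 ± 0.851, and the other arm of miR-135 10.5 ± 4.47 and 3.74 ± 1.58. The remaining lower ones were 2 further forms of let-7i, the canonical miR-185 and miR-143-3p without CTC, with 37.6 ± 5.91 and 21.9 ± 6.72 for the last.

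Other miRNAs with an unadjusted p under 0.05 and a higher mean on PD16 were miR-129b (37.9 ± 24.4 and 85.0 ± 31.9, log2FC 1.15), miR-15b (5.90 ± 2.07 and 10.6 ± 3.10, log2FC 0.83), miR-28-5p (159 ± 32.3 and 242 ± 79.5, log2FC 0.61) and miR-125b (211 ± 70.8 and 318 ± 69.6, log2FC 0.58). miR-29a, known for restraining collagen production, was the member found of the matrix list and had 29.4 ± 8.02 and 48.9 ± 17.1 (log2FC 0.79, SE 0.36). miR-19b, of the growth-promoting miR-17-92 cluster, had a lower mean, 179 ± 59.9 and 115 ± 36.5 (log2FC -0.65, SE 0.27, adjusted p = 0.454).

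By seed family, those with the smallest p and a lower mean on PD16 were CTCACAC (miR-342, log2FC -1.66, SE 0.45, adjusted p = 0.267), TGAAATG (miR-203-3p, log2FC -1.84, SE 0.59), CTGGACT (miR-378, log2FC -1.14, SE 0.40) and TGTACAG (the other arm of let-7g, log2FC -2.15, SE 0.72). Those with a higher mean, besides the miR-23 family, were CGGATCC (miR-127, log2FC 1.06, SE 0.45, adjusted p = 0.380), TAATGCT (miR-155, log2FC 0.996, SE 0.34) and TTTTTGC (miR-129b, log2FC 1.24, SE 0.46). The CTGGACT family also held a rare sequence listed under an Ensembl gene, and the others apart from the miR-23 family held 1 arm each, so they repeat the values of the arms with another scaling. Without PD12 replicate 5 the log2FC was -1.13 for TGAAATG and -1.53 for TGTACAG, and without PD12 replicate 1 it was -0.71 for CTGGACT. For CGGATCC it was 1.65 without PD12 replicate 3, with an adjusted p of 0.0420 in the edgeR test. It was 0.71 for CGGATCC without PD16 replicate 4, with an adjusted p of 0.591 in the same test.

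Lists of cell type and position are described by the count of arms with a log2FC above 0, which was 52.4% over all 229 miRNAs. The epithelial list (miR-200 family, miR-203, miR-205, miR-182 and others) had 6 of 13, and its sum was 19429.7 ± 5260.5 and 22684 ± 6403, led by miR-200c-3p with 5326 ± 2077 and 7221 ± 2407. The ciliated list, led by miR-34c, had 0 of 3 and 6970.2 ± 3456 and 5820.3 ± 1056. The stromal and smooth muscle list, led by miR-143-3p, had 2 of 9 and a sum of 109218 ± 22003 and 81492 ± 12145, with 3 PD16 libraries below all PD12 libraries. The endothelial miR-126 had 1 of 2 and a sum of 3226 ± 490.1 and 3406 ± 149.9. The erythrocyte list, led by miR-451, had 2 of 4 and a sum of 750.0, 1436, 1312, 774 and 1722 on PD12 and 1554, 3444, 342.2, 1068 and 698 on PD16, and the striated muscle list, led by miR-1, had 0 of 3 and a sum of 3097 ± 2919 and 2474 ± 1152. Apart from miR-203-3p, no arm of these lists had an unadjusted p under 0.05, and the part of cell composition in the values of single miRNAs was not tested.

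Of 21 arms of the DLK1-DIO3 region, an imprinted cluster of maternally expressed miRNAs, 16 had a log2FC above 0, with a median of 0.38, beside 52.4% and 0.04 over all 229 miRNAs. Their summed level was 1052, 895, 1819, 811 and 751 on PD12 and 1259, 1919, 1626, 2507 and 1315 on PD16, with PD12 replicate 3 in the range of PD16. miR-127 led it, with 433, 319.9, 1358, 294 and 230.2 on PD12 and 509.7, 1232, 1035, 1774 and 701 on PD16 (log2FC 0.97, SE 0.45, adjusted p = 0.454), and was the 1 arm of the list higher at an unadjusted p under 0.05, beside 5.24% of all miRNAs. Without PD12 replicate 3 its log2FC was 1.66, with an adjusted p of 0.0653 in the edgeR test. The seed family of miR-127, which holds this arm alone, had a log2FC of 0.71 without PD16 replicate 4.

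Further lists are given by the same count, beside the 52.4% and the median of 0.04 over all miRNAs. The miR-148 and miR-152 family had 5 of 5 arms above 0 and a sum of 49142 ± 10122 and 64394 ± 22655. The miR-99, miR-100 and miR-125 family had 5 of 6, with a median log2FC of 0.49, and the HOX list 0 of 4, with a median of -0.18. The count was 3 of 5 for the miR-15 and miR-16 family, 4 of 5 for the miR-181 family and 4 of 9 for the proliferation list. It was 3 of 6 for the angiogenesis and hypoxia list and 1 of 5 for miRNAs linked to prostaglandin synthase. The reference list had 2 of 5, with both arms of miR-148a and miR-199b, of which the study lists 1 arm each as a reference. The references it lists had a log2FC of 0.22 (miR-148a-3p), -0.25 (miR-199b-5p) and -0.16 (let-7d-3p).

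Some sequences are given because the study named them elsewhere. The canonical miR-1, of striated muscle, had 82.3 ± 30.8 and 49.4 ± 12.4 normalized reads (log2FC -0.67, SE 0.74). This SE takes in PD20, where the striated muscle list, led by miR-1, had a sum of 9980 ± 14977 (n = 6). The canonical miR-205, of basal epithelium, had 4.26 ± 3.50 and 2.12 ± 1.49 (log2FC -0.97, SE 0.67). Its log2FC was -0.40 without PD12 replicate 1 and -1.44 without PD16 replicate 2. All forms of miR-205 together had 21.6 ± 18.7 and 15.3 ± 7.63 (log2FC -0.52, SE 0.57). The canonical miR-191 had 137 ± 83.7 and 112 ± 125 and its form without the last G 369.6 ± 143.7 and 391 ± 98.8. miR-30a-3p without its last C had 99.7 ± 49.2 and 146 ± 67.5 (log2FC 0.58, SE 0.41), with a log2FC of 0.29 without PD16 replicate 4, 0.38 without PD12 replicate 4 and 0.92 without PD12 replicate 3. The canonical miR-140-3p, abundant in cartilage, had 541 ± 159 and 583 ± 224 (log2FC 0.14, SE 0.38) and the canonical miR-143-3p 49843 ± 12912 and 39737 ± 7713. miR-302, a miRNA of pluripotent cells, had 0 reads in all 10 libraries, which allows up to between 0.938 and 1.77 normalized reads a library, for counting error only. Its mean on PD20 was 17.8.

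The share of canonical reads was 52.2%, 52.7%, 50.9%, 53.2% and 51.5% on PD12 and 56.0%, 61.5%, 55.5%, 52.9% and 56.0% on PD16, and 4 PD16 libraries were above all PD12 libraries. The difference of 4.28 percentage points had an exact two-sided permutation p of 0.0159, or 0.111 after adjustment over 7 measures. Reads with bases added at the 3' end were 37.9%, 34.7%, 39.2%, 31.7% and 39.9% on PD12 and 27.04%, 26.8%, 29.5%, 35.1% and 32.3% on PD16, a difference of -6.52 points (exact permutation p = 0.0397, adjusted p = 0.139). An addition is relative to the record taken as canonical. It covered 99.9% of let-7i reads on both days, and 98.7% and 98.2% of miR-200c-3p reads. The level of such miRNAs therefore enters this share. On PD16 let-7i had a lower mean and miR-200c-3p a higher one. Without miR-21 and miR-10a-5p the canonical shares differed by 1.52 points, and the median over 87 miRNAs of the share within a miRNA had the opposite sign, -1.35 points. The 3' additions differed by -4.69 points without these miRNAs (exact permutation p = 0.0159) and by -1.15 points in the median over miRNAs (exact permutation p = 0.0317), neither p adjusted. Within these miRNAs the share of 3' additions was lower on PD16 in 44 and higher in 26.

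**Figure D4:**
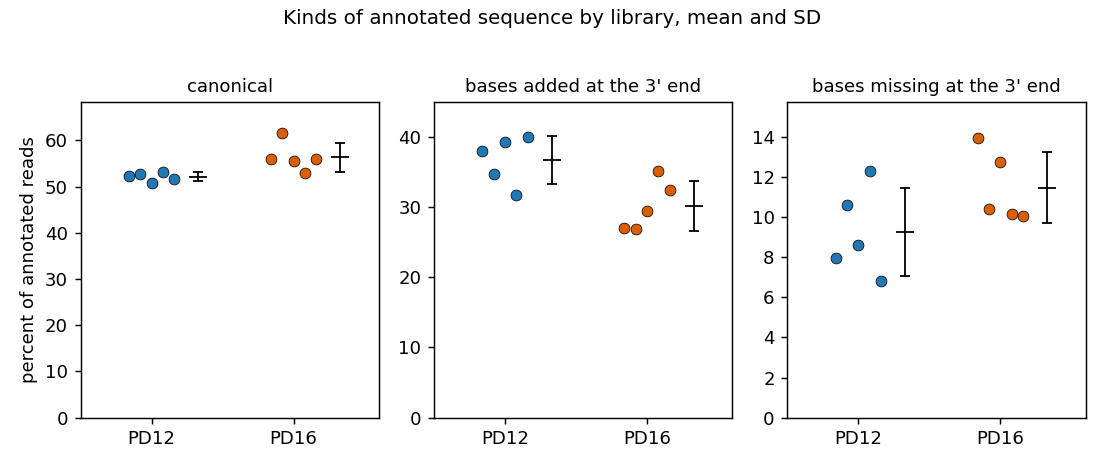
Percent of annotated reads (vertical, from 0) that were canonical, had bases added at the 3' end or lacked bases at the 3' end, by library, with the mean and SD. Canonical reads have 4 PD16 libraries above all PD12 libraries, and 3' additions have 3 PD16 libraries below them.

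The other measures differed less. Reads lacking bases at the 3' end were 9.27% ± 2.18 and 11.5% ± 1.77 (exact permutation p = 0.135), and reads changed at the 5' end 3.25% ± 1.28 and 2.80% ± 1.80 (exact permutation p = 0.659). The latter difference, -0.446 points, was -1.23 without PD16 replicate 1 (exact permutation p = 0.111) and -0.0193 without PD12 replicate 4. The mean length of annotated reads was 22.2 bases on PD12 and 22.2 on PD16. Reads of 28 to 31 bases were 1.57% ± 0.228 and 1.46% ± 0.289 of all reads.

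The same interval in the estrous cycle was set beside pregnancy with CD12 and CD16, which share no library with PD12 and PD16. The log2FC of CD16 over CD12 and the test of the difference came from fits of all 30 libraries, CD20 included. The pregnancy log2FC set beside them are those of the fit of 16 libraries. The difference between the 2 changes was tested for every sequence, miRNA and family, and none passed at an adjusted p under 0.05. Before adjustment a p under 0.05 was reached by 71 sequences (8.13%), 15 miRNAs (6.55%) and 15 families (8.88%). For miR-203-3p the log2FC of CD16 over CD12 was -1.38 (SE 0.62) beside -1.84 in pregnancy, for miR-146b -1.08 (SE 0.52) beside -1.002, and for miR-23b 0.99 (SE 0.41) beside 0.95. For miR-378 it was 0.14 (SE 0.45) beside -1.22, with an adjusted p of 0.551 for the difference. For miR-185 it was 0.01 (SE 0.26) beside -0.63 (adjusted p = 0.702), and for miR-155 -0.46 (SE 0.41) beside 0.95 (adjusted p = 0.472). The short form of miR-532-5p had a difference of 3.24 and the canonical miR-205 of -3.54, both with an adjusted p of 0.313 in the edgeR test. Both forms were rare. Canonical miR-205 had an outlying library on each day, 10.3 normalized reads in PD12 replicate 1 and 4.72 in PD16 replicate 2.

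**Figure D5:**
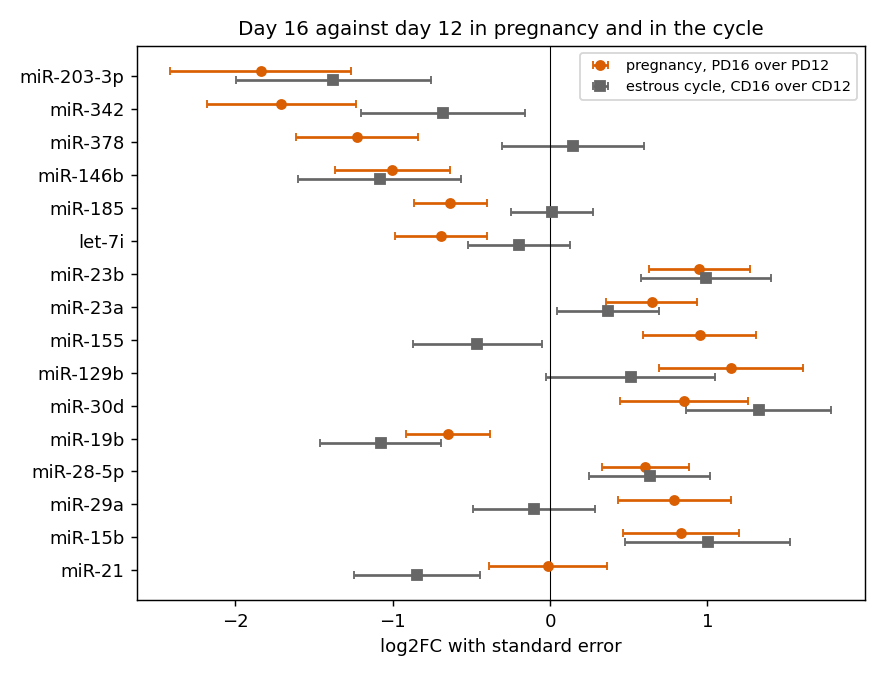
The log2FC of day 16 over day 12 with its standard error (horizontal) for 16 miRNAs (vertical), in pregnancy (circles) and in the cycle (squares). Circles are from the fit of the 16 pregnancy libraries and squares from that of all 30 libraries. For miR-23b and miR-146b the values lie close together, and for miR-378 and miR-155 they lie on opposite sides of 0, a difference that did not pass the threshold.

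On PD20, miR-146b had a mean of 405 normalized reads beside 98.1 on PD16 and 202 on PD12. miR-203-3p had 1410.0 beside 557 and 2048, and miR-23b 464 beside 802 and 414. miR-342 and miR-185 had PD20 means of 73.8 and 229.7, near those of PD16.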

How the data were processed

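Small RNA was sequenced in 1 endometrial library per gilt. The study describes that reads with any base at or under a phred score of 20, reads without adapter, short reads and reads with unknown bases were removed, and identical reads were collapsed, so the depths given are of the reads that passed. The authors deposited the raw count of each distinct sequence, unaligned. Libraries were sequenced in 3 pools, and the pool of each library is not given in the sources used here. Counts were joined by exact match to 873 sequences annotated by the study, of which only names and sequences were used. isomiRs were placed by an ungapped overlap of at least 12 bases. Library size was the sum of annotated reads, scaled by TMM. The test was the quasi-likelihood F-test of edgeR 4.0.16 in R 4.3.3 on the 16 pregnancy libraries, as a single contrast. The values of the cycle and the change against the cycle were fitted on all 30 libraries. The SE is the size of the log2FC over the square root of F. The likelihood ratio test, DESeq2 1.42.0, other scalings, filters and samples were alternatives. The text names up to 10 sequences, 8 miRNAs and 4 families in each direction by the smallest p, for sequences without overlap, those the study names, the 5 most abundant miRNAs, the leading miRNAs of lists, and the other forms of a named miRNA. Others, such as miR-30b-5p and miR-125b, were chosen after their values were seen. The members and lists were chosen with earlier results of these data known. No molecular identifiers are described, so a floor of 3 reads speaks of counting error alone.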

Additional observations from a re-analysis of the deposited data

Results flagged for a closer look

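Of 122 groups of 5 libraries examined, 15 held a library set apart from the others by more than the 95% critical value of Dixon's ratio. Chance alone gives about 1 in 20 only for independent groups of normally distributed values. Several of these groups share reads, and the values were not log-transformed, so the count cannot be set against that rate. PD12 replicate 3 was high for miR-23b (653 normalized reads, next 403), its canonical form (180, next 98.3), the miR-23 family (1268, next 719), miR-23a without its last C (41.6, next 15.01) and the miR-127 family, seed CGGATCC (1358, next 433). PD16 replicate 2 was high for miR-23a without its last C (73.7, next 39.97), miR-532-5p without CGT (21.2, next 7.14), canonical miR-205 (4.72, next 1.86) and canonical miR-143-3p (53272, next 38594). PD16 replicate 1 was high for canonical miR-191 (333, next 83.7), miR-10b (153948, next 42240), miR-10a-5p (144733, next 29262) and the share of reads changed at the 5' end (5.96%, next 2.50%). PD12 replicate 1 was high for canonical miR-205 (10.3, next 3.70), and PD16 replicate 5 for miR-204 without its last T (9.04, next 7.23).

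A cutoff of 10 reads in pregnancy libraries left 22398 deposited sequences to test. The test called 5 of them, all outside the annotated set and all lower on PD16. Of these, 4 share a core of 18 bases. Together these 4 had 2485, 484, 93.8, 16150 and 1.48 CPM of all reads on PD12 and 0, 20.8, 7.39, 13.1 and 10.6 on PD16, so that PD12 replicate 4 held most of them. None of the 4 is among the annotated sequences, and their source was not examined. The other was a form of miR-21 outside the annotated set, with 50.5, 81.4, 3.53, 48.2 and 0.738 on PD12 and 0.639, 0, 1.48, 1.46 and 1.22 on PD16.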

How the results depend on the processing

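The count of 0 called sequences became 3 with the likelihood ratio test and 9 with DESeq2. It became 2 in the joint test of PD16 and PD20 against PD12 (forms of miR-146b and miR-532-5p). It was 5 over the 22398 deposited sequences that passed the cutoff of 10 reads, and 0 under the other alternatives. DESeq2 called 1 miRNA and 1 family, both miR-342, and leaving out single libraries moved the called families from 0 to 2 (without PD12 replicate 3, miR-342 and miR-127). No sequence or miRNA was called without any single library, while sequences at an unadjusted p under 0.05 ran from 51 (without PD12 replicate 5) to 149 (without PD16 replicate 1). The change against the cycle gave 0 calls in every setting run. Leaving out libraries moved the separation between 0.00173 (without PD12 replicate 5) and 0.0119 (without PD16 replicate 1). The difference in canonical share moved between 3.00 and 5.15, and in 3' additions between -7.77 and -5.68. In reads changed at the 5' end it moved between -1.23 and -0.0193, and in annotated percent between -0.550 and 1.32. In reads of 28 to 31 bases it moved between -0.217 and -0.0212, and in mean length between -0.0677 and -0.0045. Without miR-21 and miR-10a-5p the canonical share differed by 1.52 and the mean length by 0.0355, and the median over miRNAs turned the canonical share to -1.35. The causes were not tested.

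Of the 1065 refits of 54 named features, 1029 kept direction and side of the threshold, 14 passed both thresholds and 20 changed sign. The other 2 were of miR-302, which had 0 reads on both days and so has no direction. Its refits without single libraries stayed at a log2FC of 0 and are counted in the 1029. The sign changes were at log2FC near 0 in the reported fit. miR-21 was 0.00407 with all reads as library size, 0.00168 with only the 10 libraries and 0.0197 with all 30. Without single libraries miR-21 ran from -0.286 to 0.329, miR-10b from -0.981 to 0.144, miR-10a-5p from -1.31 to 0.294, miR-191 from -1.27 to 0.0668, miR-191 3' DEL G from -0.0323 to 0.315 and miR-140-3p from -0.0466 to 0.339. miR-302 was fitted at -0.0305 with the title number as a term, and its adjusted p of 0.00929 in the joint test, by edgeR, came with a log2FC of 0 on PD16. The profiles showed no pairing by the labels' replicate numbers: 2 of 5 same-numbered pairs had a correlation over 0.1, and 0 matched their own number best. With 5 pairs this cannot decide whether same-numbered libraries were handled together. With a replicate block 0 sequences, 0 miRNAs and 0 families were called, and 76 sequences had an unadjusted p under 0.05. Depth limits forms near 1 normalized read.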
